A study of Homo sapiens with 9 samples.

Results

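The genes described here are 9 members of the interleukin-6 (IL6) and leukaemia inhibitory factor (LIF) cytokine pathway: the ligand genes IL6, LIF and IL11, the receptor genes IL6ST, LIFR and OSMR, the kinase gene JAK1, the transcription factor gene STAT3 and the feedback inhibitor gene SOCS3. They were taken by gene symbol, and all 9 were found among the 15570 genes of the deposited expression table. The 9 RNA libraries came from hCMEC/D3 cells, an immortalised line from the endothelium of human brain capillaries that is grown to model the blood-brain barrier. Control cells were untreated (n = 3). Cells of the OGD group (oxygen and glucose deprivation, n = 3) were kept for 4 h in glucose-free medium in an anaerobic chamber under 95% N2 and 5% CO2. Cells of the OGD/R group (n = 3) went through the same deprivation and then spent 16 h in normal medium under 21% O2 and 5% CO2. No label says whether replicates were separate cultures, and p-values here reflect only the spread between these libraries, which may be technical. All 3 groups come from 1 cell line, and the 4 h and 16 h steps differ in time as well as in oxygen and glucose.

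Cytokines of the IL6 family signal through receptor complexes that share the subunit gp130, encoded by IL6ST. IL6 and IL11 first bind their own receptors, encoded by IL6R and IL11RA, whereas LIF joins gp130 to the LIF receptor and oncostatin M joins it to either the LIF receptor or the oncostatin M receptor. Receptor-bound JAK kinases phosphorylate STAT3, which moves to the nucleus and switches on genes that include SOCS3, whose product in turn blocks gp130 and JAK signalling. In brain endothelium, IL6 and LIF are known as inflammatory signals that the cells can both make and answer.

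The promoter sequences of 2 of the ligand genes are shown because both cytokines were expressed but only IL6 passed the main test in OGD/R against OGD. IL11 was called there under 4 of 20 other settings of the processing, as given below. Any link between the motifs and the changes was not tested. The sequences are the 250 bases before the transcription start, 5′ to 3′ on the gene's strand, from RefSeq on GRCh38.p14. IL6 lies on the plus strand (chr7:22726950-22727199), and the capitals mark the 1 match to the NF-kB consensus, GGGATTTTCC, from 73 to 64 bases before the start. IL11 lies on the minus strand (chr19:55370464-55370713), and the capitals mark the 1 match to the AP-1 motif TGANTCA, from 96 to 90 bases before the start.
IL6: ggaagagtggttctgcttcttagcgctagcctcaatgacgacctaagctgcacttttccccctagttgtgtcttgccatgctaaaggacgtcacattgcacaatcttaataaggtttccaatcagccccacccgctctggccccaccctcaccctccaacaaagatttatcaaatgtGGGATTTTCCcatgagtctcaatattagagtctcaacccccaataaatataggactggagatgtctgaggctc
IL11: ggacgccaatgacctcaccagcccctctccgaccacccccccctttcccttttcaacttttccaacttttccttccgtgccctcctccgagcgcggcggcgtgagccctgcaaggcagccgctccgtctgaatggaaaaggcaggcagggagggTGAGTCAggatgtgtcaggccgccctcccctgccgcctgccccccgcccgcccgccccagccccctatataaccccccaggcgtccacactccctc

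The table of promoters held 13 start windows for 8 of the 9 genes, LIF being the other. Each was searched on both strands for 6 motifs. The STAT motif TTCNNNGAA was found in 2 of the 3 LIFR windows (TTCCTTGAA and TTCATCGAA) and in no other window of the 9 genes, against 6.57% of all 35116 windows in the table. The AP-1 motif was found in IL11 alone (6.57% of all windows), and the NF-kB consensus in IL6 and IL6ST (9.96%). The HIF core ACGTG was found in 1 window each of LIFR and JAK1 (18.5% of all windows). The CRE motif TGACGTCA (1.65%) and the C/EBP-ATF motif TGATGNAA (3.14%) were in none of the 13. A motif match describes the letters of the window and is not evidence of binding.

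Values are FPKM, fragments scaled to transcript length and library, a unit that allows levels of different genes to be compared per length. Of the 15570 genes, 10818 reached 1 FPKM in 3 or more libraries and were tested, among them all 9 members. Library sums ran from 454237 to 537878 FPKM in control, from 585947 to 605818 in OGD and from 442696 to 449248 after OGD/R, and the number of reads is unknown. Libraries also differed in how values followed transcript length. Relative to the mean of all libraries, the slope of log2(FPKM + 1) per doubling of length lay between -0.07 and 0.06 in control, between -0.21 and -0.16 in OGD and between 0.13 and 0.23 after OGD/R. Of 14 endothelial markers listed, 13 were in the table and 5 passed the expression filter (PECAM1, CDH5, ROBO4, ENG and MCAM). The summed level of the list was 38.3 to 49.99 FPKM in the controls, 29.2 to 32.4 in OGD and 93.4 to 112 after OGD/R. ENG (11.1 to 17.0, 6.11 to 7.11 and 30.3 to 38.0 FPKM) and MCAM (21.9 to 28.9, 19.9 to 22.9 and 54.2 to 64.9) made most of this sum. After OGD/R, CDH5 (1.44 to 2.62) and ROBO4 (2.05 to 2.56) lay above their controls. PECAM1 after OGD/R (1.21 to 1.34) lay within its control range (0.871 to 1.55). VWF, KDR and CLDN5 peaked at 0.0881, 0.0176 and 0.101 FPKM over all libraries. Of 6 fibroblast markers, 3 passed (COL1A1, COL1A2 and LUM), with a summed level of 20.5 to 28.6 FPKM in the controls, 9.23 to 10.8 in OGD and 52.2 to 69.7 after OGD/R, while PDGFRA read at most 0.0118. Of 8 pericyte and smooth muscle markers 4 passed, summing to 10.2 to 13.7, 6.14 to 7.74 and 17.1 to 19.5 FPKM in the 3 groups. Neither list had a gene at 0 in all 9 libraries. These sums moved in the same order as OSMR and STAT3 below, and their part in the results was not tested. Of 5 epithelial markers 2 passed (KRT8 and KRT18), with sums of 166 to 201, 130 to 140 and 238 to 257 FPKM in the same order of groups, while EPCAM read at most 0.104. KRT18 made most of these sums (157 to 188, 119 to 127 and 227 to 247 FPKM). KRT8 did not follow them, at 9.13 to 13.2, 11.2 to 11.7 and 8.92 to 11.0 FPKM. Of 7 leukocyte markers measured, 2 passed (CD68 and CD14), with sums of 18.2 to 21.6, 21.5 to 22.6 and 27.7 to 29.8 FPKM, and PTPRC stayed near 0 in all libraries. CD68 made most of the leukocyte sums (17.1 to 20.6, 20.6 to 21.6 and 25.6 to 27.2 FPKM). The part of these sums was likewise not tested.

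On the deposited scale, IL6 and LIF stayed near their control level after deprivation and were about 3-fold and 4-fold higher after reoxygenation. OSMR, STAT3 and SOCS3 fell in OGD and rose again after OGD/R, with OSMR and STAT3 ending above control and SOCS3 close to it. IL11 and IL6ST were called in OGD/R against control alone. In OGD against control, 5 of the 9 genes fell (LIFR, OSMR, JAK1, STAT3 and SOCS3) and 0 rose, beside 46.7% of all genes tested that fell and 11.3% that rose. In OGD/R against OGD, 7 rose (IL6, LIF, LIFR, OSMR, JAK1, STAT3 and SOCS3) and 0 fell, beside 53.3% and 17.4% of all genes tested. In OGD/R against control, 6 rose (IL6, LIF, IL11, IL6ST, OSMR and STAT3) and 0 fell, beside 24.7% and 16.5%. The share called in either direction was 58.0%, 70.7% and 41.2% of all genes tested, and the members' counts are to be read against these shares. With a log2 fold change of at least 1 also required, STAT3 and SOCS3 fell in OGD against control and 0 members rose, beside 4.63% of all genes lower and 1.56% higher. By the same rule 6 members rose and 0 fell in OGD/R against OGD, beside 17.0% higher and 3.52% lower. IL6 and LIF alone of the 9 rose by that rule in OGD/R against control, beside 3.04% higher and 0.444% lower. The 3 comparisons share their groups and are not independent of each other.

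**Figure D1:**
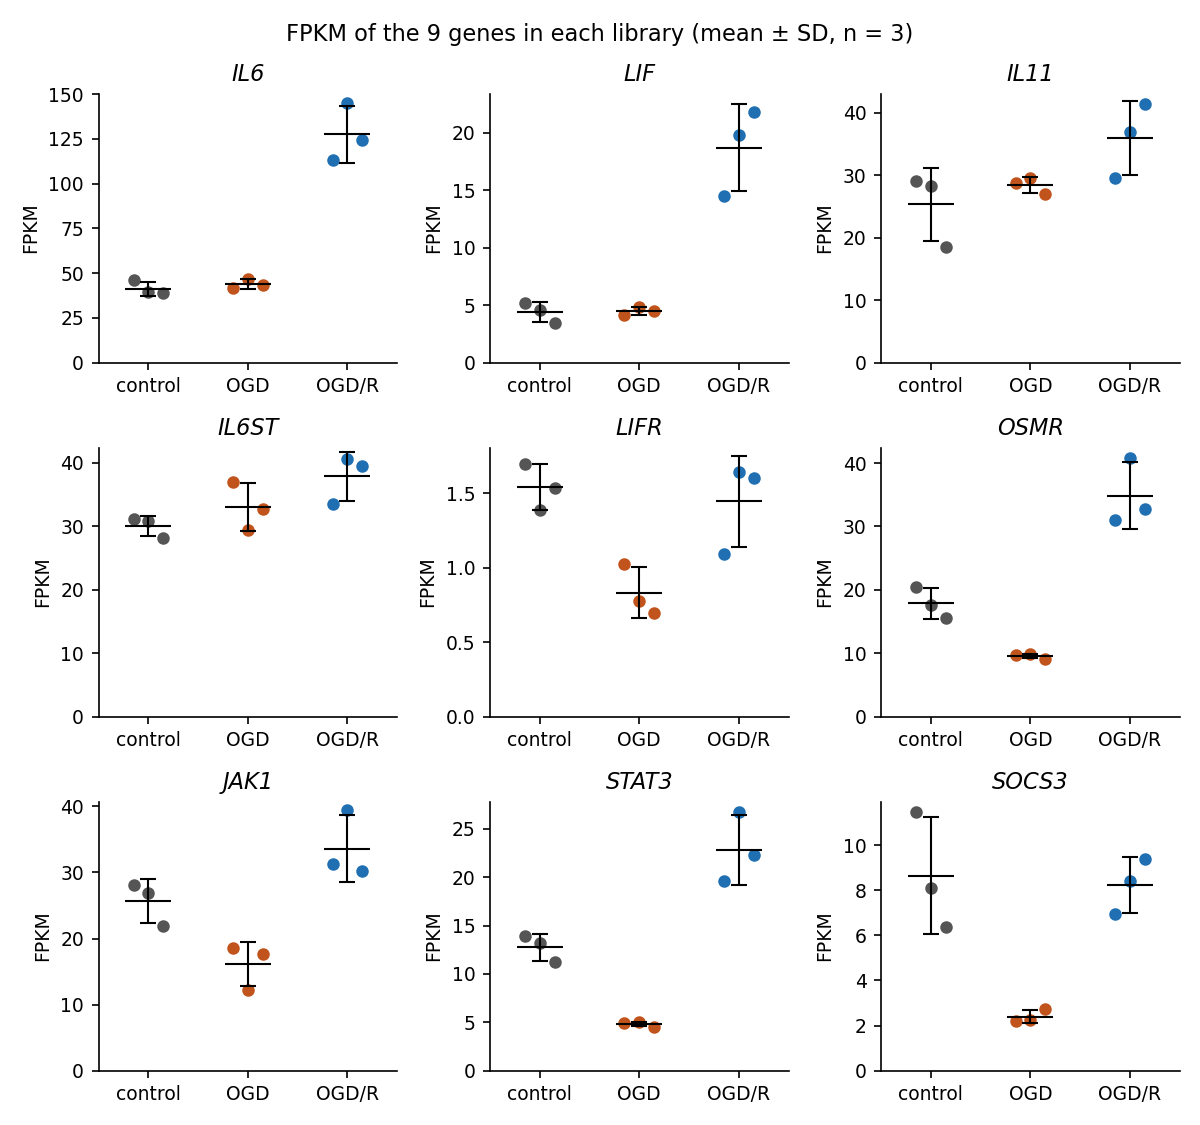
FPKM of the 9 genes in each of the 9 libraries, by group, on linear axes that start at 0 (points: replicates 1 to 3 from left to right; horizontal bar and whiskers: mean ± SD, n = 3). IL6 reads between 38.7 and 47.0 FPKM in all control and OGD libraries and between 113 and 145 in OGD/R, while STAT3 and SOCS3 are lowest in OGD.

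Of the ligands, IL6, the inflammatory cytokine that gives the family its name (NCBI Gene 3569, GRCh38 chromosome 7, 22727200 to 22731998, overlapping the non-coding gene IL6-AS1), was the most abundant of the 9 genes in every group. It read 45.9, 39.6 and 38.7 FPKM in control replicates 1 to 3, 41.5, 47.0 and 43.5 in OGD, and 113, 145 and 124 after OGD/R. Every OGD/R library lay above every other library, and control and OGD overlapped. The mean went from 41.4 ± 3.95 in control and 44.0 ± 2.79 in OGD to 127 ± 16.1 FPKM in OGD/R (SD, n = 3). The log2 fold change was 1.60 (SE 0.11, adjusted p = 2.54e-06) against control and 1.51 (SE 0.11, adjusted p = 3.25e-07) against OGD. In OGD/R against control, 34 of the 10818 genes tested had a larger rise. OGD against control gave 0.09 (95% interval -0.14 to 0.32, adjusted p = 0.491).

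LIF, which signals through the LIF receptor and gp130 (NCBI Gene 3976, chromosome 22, 30240453 to 30246759, overlapping the non-coding genes LIF-AS1 and LIF-AS2), averaged 0.106 times the FPKM of IL6 within the control libraries. It read 5.15, 4.58 and 3.48 FPKM in control, 4.13, 4.84 and 4.47 in OGD, and 14.5, 19.8 and 21.8 after OGD/R. The OGD/R libraries again lay above all others, with control and OGD overlapping. Means were 4.405 ± 0.848, 4.48 ± 0.355 and 18.7 ± 3.77 FPKM (SD, n = 3). The rise from OGD to OGD/R was 1.83 on the log2 scale (SE 0.16, adjusted p = 1.51e-06), and that from control 1.86 (SE 0.16, adjusted p = 1.40e-05), which 12 genes exceeded. OGD against control gave 0.03 (95% interval -0.32 to 0.38, adjusted p = 0.880). Since strand use is not given, reads of IL6 and LIF and of their antisense genes cannot be told apart.

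IL11, a gp130 cytokine with its own receptor (NCBI Gene 3589, chromosome 19, 55364382 to 55370463), was expressed in every library and moved less. It read 29.1, 28.3 and 18.5 FPKM in control, 28.7, 29.5 and 27.0 in OGD, and 29.5, 36.9 and 41.3 after OGD/R. Control replicate 3 was low beside the other controls, and the lowest OGD/R library lay just above the highest OGD and control libraries. OGD/R exceeded control by 0.50 on the log2 scale (SE 0.16, adjusted p = 0.0252). Leaving out control replicate 3 ended that call (0.30, adjusted p = 0.0799), as did leaving out OGD/R replicate 2 (adjusted p = 0.0802) or 3 (adjusted p = 0.104) and testing without the filter (adjusted p = 0.0712). OGD/R against OGD gave 0.32 (95% interval -0.03 to 0.67, adjusted p = 0.0956). It was called without control replicate 3 (adjusted p = 0.0240) or OGD/R replicate 1 (adjusted p = 0.0342), with only the 2 groups in the fit (adjusted p = 0.0212) and after rescaling to an equal sum per library (adjusted p = 0.00293). OGD against control gave 0.19 (-0.16 to 0.54, adjusted p = 0.334).

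Of the receptor genes, OSMR changed most on the deposited scale. In OGD against control IL6ST moved further than OSMR after median-of-ratios scaling (0.50 against -0.47) and with the length trend removed (0.67 against -0.42). OSMR encodes the oncostatin M receptor subunit that pairs with gp130 (NCBI Gene 9180, chromosome 5, 38846012 to 38945579, overlapping RICTOR). OSMR read 20.5, 17.6 and 15.5 FPKM in control, 9.75, 9.81 and 9.17 in OGD, and 31.0, 40.9 and 32.7 after OGD/R. The 3 groups did not overlap. The mean fell from 17.9 ± 2.48 to 9.57 ± 0.352 FPKM in OGD (SD, n = 3), a log2 difference of -0.83 (SE 0.13, adjusted p = 0.000241), and stood at 34.9 ± 5.27 FPKM in OGD/R. The rise from OGD was 1.75 on the log2 scale (SE 0.13, adjusted p = 3.58e-07), and OGD/R exceeded control by 0.92 (SE 0.13, adjusted p = 0.000183).

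IL6ST, the gene of the shared subunit gp130 (NCBI Gene 3572, chromosome 5, 55935095 to 55994963), had the second highest mean of the 9 genes in each group. It read 31.1, 30.8 and 28.2 FPKM in control, 37.0, 29.4 and 32.8 in OGD, and 33.5, 40.6 and 39.5 after OGD/R. OGD overlapped both other groups. OGD/R exceeded control by 0.32 on the log2 scale (SE 0.11, adjusted p = 0.0301), a difference lost without control replicate 3 (adjusted p = 0.0791), OGD/R replicate 2 (adjusted p = 0.104) or OGD/R replicate 3 (adjusted p = 0.102), and with only the 2 groups in the fit (adjusted p = 0.0536). It was also lost with the replicate number as a block (adjusted p = 0.0528), after median-of-ratios scaling (adjusted p = 0.0521) and with the length trend removed (-0.038, adjusted p = 0.714). OGD against control gave 0.13 (95% interval -0.10 to 0.36, adjusted p = 0.310), and OGD/R against OGD 0.19 (-0.04 to 0.43, adjusted p = 0.127). Both depended on scaling, as given below.

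LIFR, the LIF receptor gene (NCBI Gene 3977, chromosome 5, 38474668 to 38608403, overlapping the non-coding gene LIFR-AS1), was the least abundant of the 9. It read 1.70, 1.39 and 1.53 FPKM in control, 1.02, 0.776 and 0.693 in OGD, and 1.09, 1.64 and 1.60 after OGD/R. All OGD libraries lay below all others, and control and OGD/R overlapped. The gene lay at the expression filter of 1 FPKM, which it passed through control and OGD/R. LIFR fell by 0.47 on the log2 scale in OGD (SE 0.14, adjusted p = 0.0112), or by 0.16 relative to the median of all genes tested. It rose by 0.41 in OGD/R against OGD (SE 0.14, adjusted p = 0.0173), relative value 0.02. The fall was lost without OGD replicate 3 (adjusted p = 0.0525), after median-of-ratios scaling (-0.28, adjusted p = 0.0627) and after quantile normalization (-0.19, adjusted p = 0.213). The rise was lost without OGD replicate 2 or 3 or OGD/R replicate 2 or 3 (adjusted p from 0.0567 to 0.0740) and after median-of-ratios scaling (0.16, adjusted p = 0.2404), and turned sign after quantile normalization (-0.046, adjusted p = 0.744). OGD/R against control gave -0.06 (95% interval -0.36 to 0.24, adjusted p = 0.749).

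Downstream of the receptors, STAT3, the transcription factor gene (NCBI Gene 6774, chromosome 17, 42313324 to 42388442), had the largest rise of the 9 genes from OGD to OGD/R on the deposited scale. It read 13.9, 13.2 and 11.2 FPKM in control, 4.92, 4.98 and 4.56 in OGD, and 19.6, 26.7 and 22.3 after OGD/R. No library of one group overlapped another group. From 12.8 ± 1.40 FPKM in control the mean fell to 4.82 ± 0.229 in OGD (SD, n = 3), a log2 difference of -1.24 (SE 0.13, adjusted p = 2.04e-05), and stood at 22.9 ± 3.61 in OGD/R. The rise from OGD was 2.03 on the log2 scale (SE 0.13, adjusted p = 1.51e-07), which 100 of the 10818 genes exceeded. OGD/R exceeded control by 0.79 (SE 0.13, adjusted p = 0.000556).

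JAK1, the kinase gene (NCBI Gene 3716, chromosome 1, 64833229 to 65067746, overlapping RAVER2 among others), read 28.1, 26.9 and 21.9 FPKM in control, 18.6, 12.3 and 17.6 in OGD, and 31.2, 39.4 and 30.2 after OGD/R. OGD lay below both other groups. The fall in OGD was 0.65 on the log2 scale (SE 0.16, adjusted p = 0.00410), or 0.34 relative to the median of all genes. It was not called with median-of-ratios scaling (-0.28, adjusted p = 0.106), with quantile normalization (-0.36, adjusted p = 0.0507) or with length trend removal (-0.27, adjusted p = 0.119). The rise in OGD/R against OGD was 1.02 (SE 0.16, adjusted p = 9.39e-05). OGD/R against control gave 0.37 (95% interval 0.03 to 0.72, adjusted p = 0.0735). It was called higher after quantile normalization (adjusted p = 0.0412), after rescaling to an equal sum per library (adjusted p = 0.0337) and without OGD replicate 2 (adjusted p = 0.0393).

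SOCS3, the feedback inhibitor gene (NCBI Gene 9021, chromosome 17, 78356778 to 78360925, overlapping the non-coding gene SOCS3-DT), fell most of the 9 genes in OGD on the deposited scale. It read 11.5, 8.09 and 6.37 FPKM in control, 2.21, 2.26 and 2.73 in OGD, and 6.93, 8.39 and 9.37 after OGD/R. The controls were spread widely, all OGD libraries lay below them, and OGD/R lay within the control range. The mean went from 8.64 ± 2.59 to 2.40 ± 0.285 FPKM in OGD (SD, n = 3), a log2 difference of -1.47 (SE 0.18, adjusted p = 6.06e-05). It returned to 8.23 ± 1.22 FPKM in OGD/R, a rise of 1.44 (SE 0.18, adjusted p = 2.02e-05). OGD/R against control gave -0.04 (95% interval -0.43 to 0.36, adjusted p = 0.887).

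**Figure D2:**
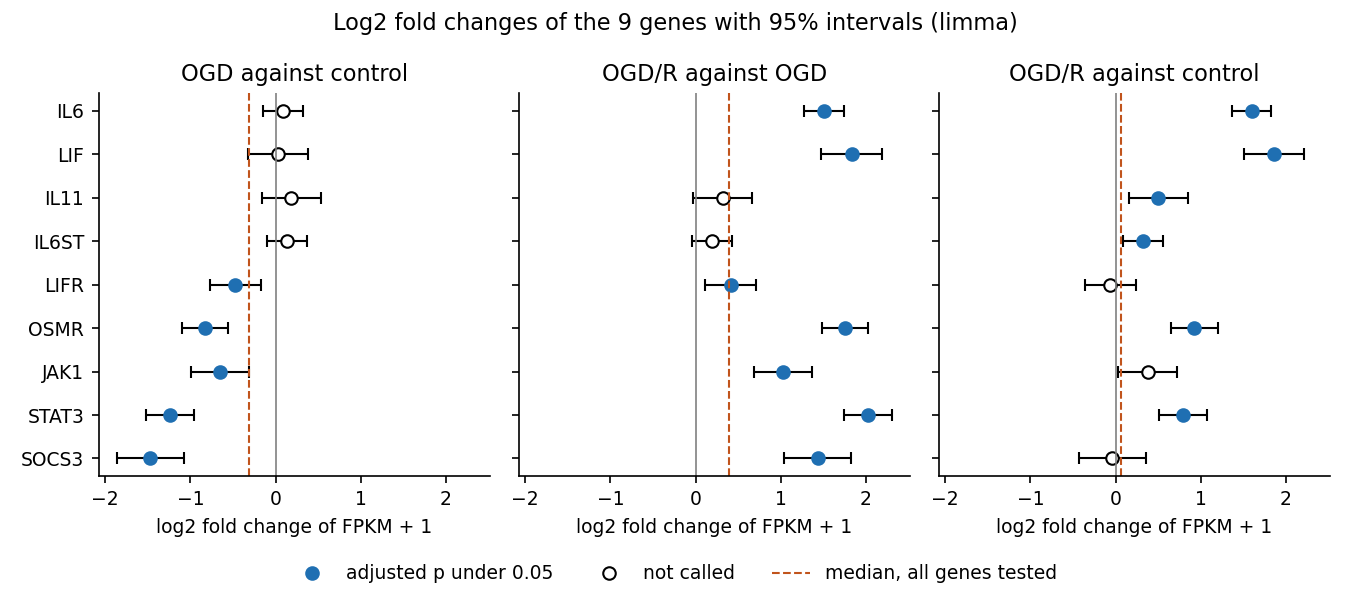
Log2 fold change of FPKM + 1 for the 9 genes in the 3 comparisons, with 95% intervals from limma (filled: adjusted p under 0.05; open: not called; dashed line: median of all genes tested). In OGD against control the ligands and IL6ST lie near 0 and SOCS3 at -1.47, whereas in OGD/R against control LIF lies at 1.86 and IL6 at 1.60.

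The order of levels per length within a group moved with these changes. In control, mean FPKM ran from IL6 (41.4) through IL6ST (30.0), JAK1 (25.6), IL11 (25.3), OSMR (17.9), STAT3 (12.8), SOCS3 (8.64) and LIF (4.405) to LIFR (1.54). JAK1 overlapped IL11, IL11 overlapped OSMR, and STAT3 overlapped SOCS3. In OGD, LIF (4.48) stood above SOCS3 (2.40) and overlapped STAT3 (4.82). In OGD/R, IL6 (127) stood apart from IL6ST (37.9), IL11 (35.9), OSMR (34.9) and JAK1 (33.6), whose neighbouring ranges overlapped. STAT3 (22.9) and LIF (18.7) overlapped next, followed by SOCS3 (8.23) and LIFR (1.45). Within control, replicate 1 was the highest library for 9 of the 9 genes and replicate 3 the lowest for 8. Within OGD/R, replicate 1 was the lowest for 8. The median FPKM of all genes had the same highest and lowest control library, at 4.62, 4.28 and 3.82 in replicates 1 to 3. In OGD/R that median was also lowest in replicate 1 (4.57, 5.39 and 5.04). The order of libraries is thus not particular to the 9 genes.

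Ratios of a pair of genes within a library do not depend on a scaling factor common to that library, although a length trend can still move them. They were chosen after the values had been seen, and 21 comparisons of 7 ratios were tested. With 3 libraries against 3, the smallest p an exact two-sided permutation test can give is 0.1 (0.124 after Benjamini-Hochberg adjustment), so none could pass 0.05. LIF per IL6 was 0.112, 0.116 and 0.0901 in control, 0.0997, 0.103 and 0.103 in OGD, and 0.128, 0.137 and 0.176 after OGD/R, above all other libraries. IL11 per IL6 was 0.609 ± 0.1199 in control, 0.647 ± 0.0391 in OGD and 0.283 ± 0.0438 after OGD/R (SD, n = 3). In both ratios control and OGD overlapped, and OGD/R lay outside the range of both.

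OSMR per IL6ST, the ratio of the oncostatin M receptor subunit to the shared subunit, was 0.657, 0.573 and 0.551 in control, 0.263, 0.333 and 0.280 in OGD, and 0.925, 1.01 and 0.828 after OGD/R. The groups did not overlap. LIFR per IL6ST was 0.0513 ± 0.00536 in control, 0.0251 ± 0.00343 in OGD and 0.0378 ± 0.00452 after OGD/R (SD, n = 3), again with no overlap. OSMR per LIFR, the ratio of the alternative partners of gp130, was 11.6 ± 1.33 in control and 11.8 ± 1.99 in OGD, which overlapped, and 24.6 ± 3.95 in OGD/R. SOCS3 per STAT3 was 0.825, 0.613 and 0.568 in control, 0.449, 0.454 and 0.598 in OGD, and 0.354, 0.314 and 0.420 after OGD/R. Control and OGD overlapped in this ratio, and OGD/R lay below both. STAT3 per JAK1, the ratio of the transcription factor to the kinase, was 0.494, 0.490 and 0.511 in control, 0.265, 0.406 and 0.259 in OGD, and 0.627, 0.678 and 0.738 after OGD/R. In this ratio each group lay apart from the other two.

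**Figure D3:**
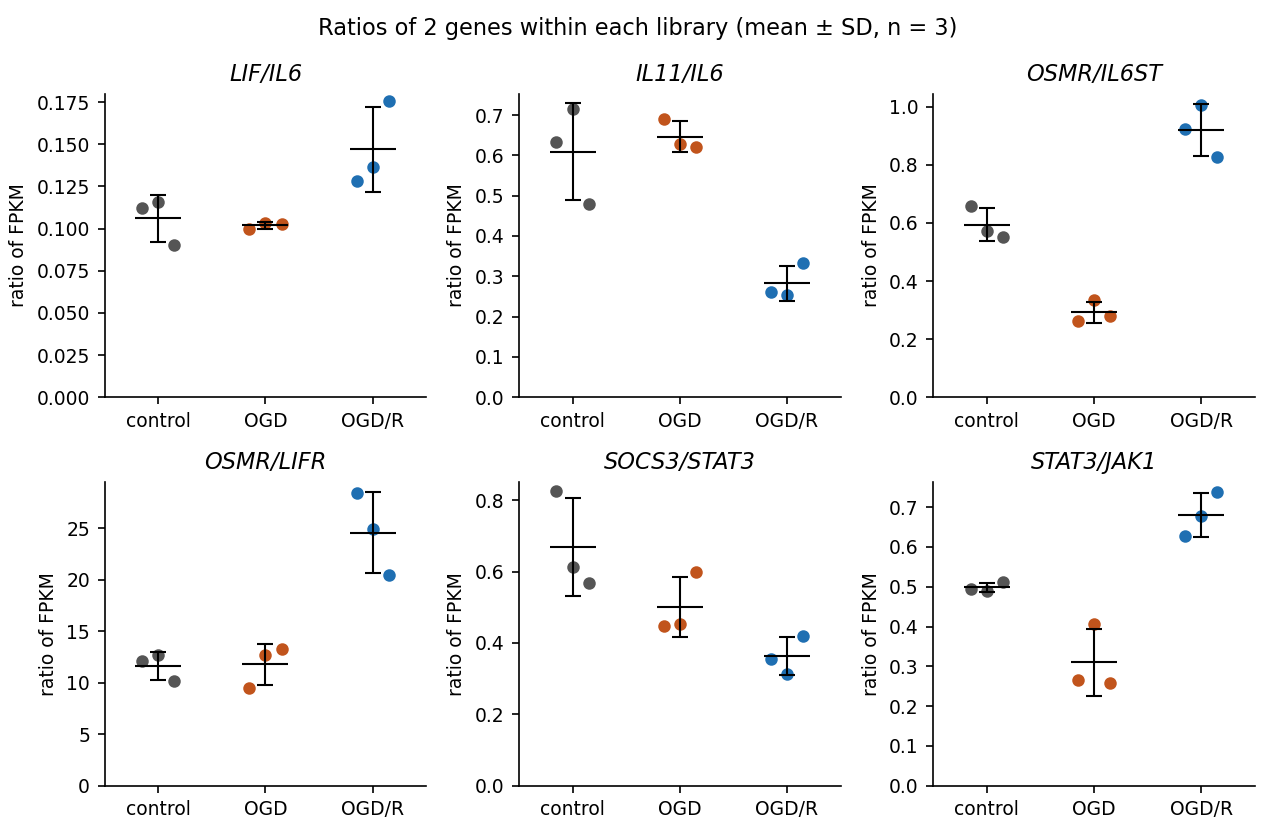
Ratio of the FPKM of a pair of genes within each library, by group (points: replicates 1 to 3 from left to right; bar and whiskers: mean ± SD, n = 3; linear axes from 0). OSMR per IL6ST is lowest in OGD (0.263 to 0.333) and highest in OGD/R (0.828 to 1.01), and SOCS3 per STAT3 is lowest in OGD/R (0.314 to 0.420).

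The scaling between libraries bore on the smaller changes. On the deposited scale all genes tested had a median log2 fold change of -0.31 in OGD against control, 0.39 in OGD/R against OGD and 0.07 in OGD/R against control. After median-of-ratios scaling these medians were 0.01, -0.01 and -0.03, and the calls among all genes went from 1218 higher and 5054 lower to 2930 higher and 2422 lower in OGD against control. Between OGD and OGD/R they went from 5770 higher and 1878 lower to 3432 and 3783, and in OGD/R against control from 2673 and 1787 to 2342 and 2550. Of the 9 genes in OGD against control, 3 then rose (IL6, IL11 and IL6ST) and 3 fell (OSMR, STAT3 and SOCS3), in place of 0 and 5. IL6 in OGD was higher than control by 0.46 in that setting (adjusted p = 0.00138), but not after quantile normalization or length trend removal. LIF in OGD was higher after quantile normalization (0.41, adjusted p = 0.0306). After rescaling to an equal sum per library, the uncalled differences of the ligands in OGD against control had the opposite sign (-0.18 for IL6, -0.21 for LIF and -0.08 for IL11). In OGD/R against OGD, 6 members rose and 1 fell after median-of-ratios scaling. There, 6 rose and 2 fell with the length trend removed, beside 30.2% and 30.9% of all genes tested. Against control, 5 rose and 1 fell in OGD/R with the length trend removed, beside 21.0% and 23.2%.

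IL6ST and LIFR were the 2 members with a sign change in a comparison that was called on the deposited scale or under the other scaling, and they have the longest transcripts of the 9 genes (9057 and 10089 bases for the longest coding transcript in GENCODE 29, against 1527 for IL6). With the length trend removed, IL6ST was higher in OGD than in control (0.67, adjusted p = 9.31e-05) and lower in OGD/R than in OGD (-0.71, adjusted p = 2.43e-05). IL6ST was also lower in OGD/R than in OGD after median-of-ratios scaling (-0.29, adjusted p = 0.0104), but higher after rescaling to an equal sum per library (0.61, adjusted p = 0.000821) or without OGD/R replicate 1 (0.28, adjusted p = 0.0456). For LIFR, removal of the length trend gave a difference of 0.10 between OGD and control (adjusted p = 0.529). In that same setting LIFR was lower in OGD/R than in OGD (-0.54, adjusted p = 0.00204) and than in control (-0.45, adjusted p = 0.0102). The directions of OSMR, STAT3 and SOCS3 in OGD and of IL6, LIF, OSMR, JAK1, STAT3 and SOCS3 in OGD/R against OGD were the same in all 20 alternatives, and each remained called. Against control, this held in OGD/R for IL6, LIF, OSMR and STAT3.

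**Figure D4:**
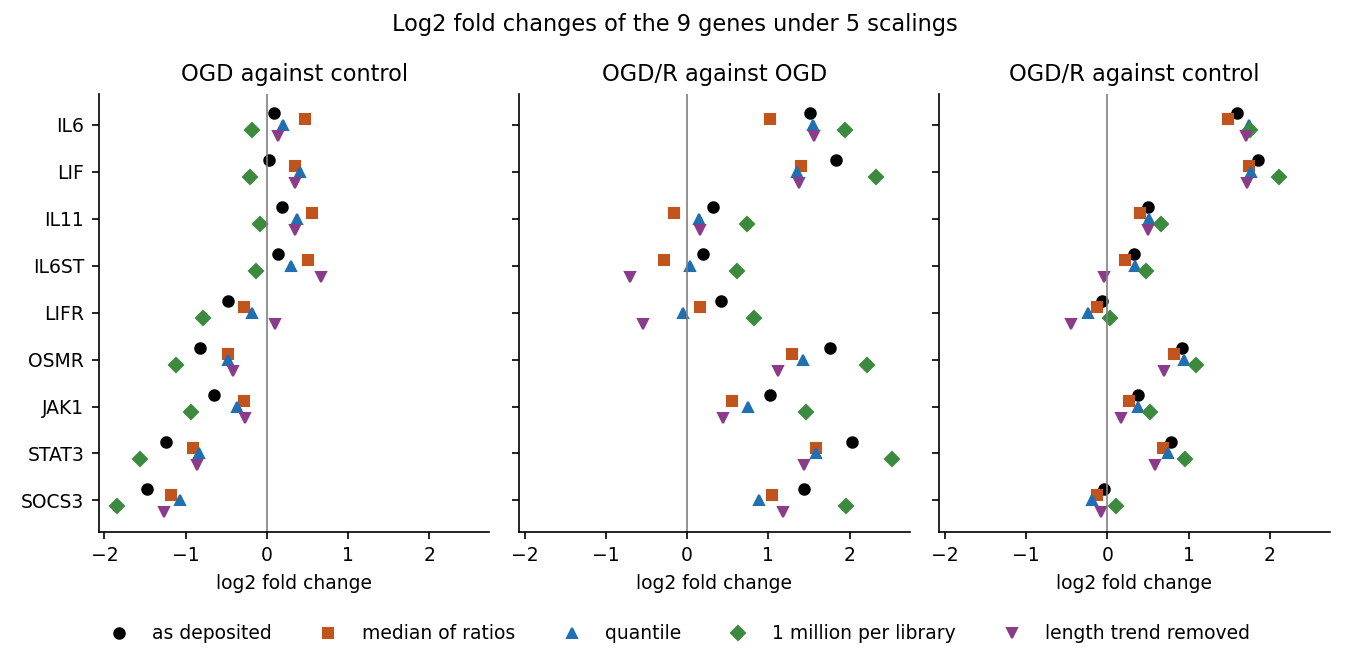
Log2 fold change of the 9 genes on the deposited scale and under 4 other scalings, in the 3 comparisons (1 symbol per scaling, on the log2(FPKM + 1) scale). Symbols for IL6 and LIF in OGD/R stay right of 0 under each scaling, whereas those of IL6ST and LIFR in OGD/R against OGD fall on both sides.

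The other genes of the pathway were described from lists by role. Of 66 genes listed, 62 were in the table and 47 passed the expression filter. In OGD against control 2 were higher and 30 lower, beside 11.3% and 46.7% of all genes tested (median -0.63 against -0.31). Between OGD and OGD/R 40 were higher and 1 lower, beside 53.3% and 17.4% (median 0.996 against 0.39). In OGD/R against control 24 were higher and 1 lower, beside 24.7% and 16.5% (median 0.34 against 0.07). After median-of-ratios scaling these counts were 6 and 23, 32 and 5, and 19 and 5, beside 27.1% and 22.4%, 31.7% and 35.0%, and 21.6% and 23.6% of all genes. With the length trend removed they were 4 and 19, 30 and 4, and 23 and 7, beside 21.1% and 23.6%, 30.2% and 30.9%, and 21.0% and 23.2%. After quantile normalization they were 4 and 19, 31 and 6, and 24 and 3, beside 20.02% and 22.4%, 31.4% and 31.3%, and 22.1% and 23.1%.

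Ligands and receptors outside the 9 genes were mostly low. OSM, the gene of oncostatin M, was listed at 0 in 8 of the 9 libraries and at 0.162 FPKM in OGD/R replicate 3. IL6R, the IL6-binding receptor, was below the filter, at 0.265 to 0.702 FPKM in the controls, 0.104 to 0.178 in OGD and 0.453 to 0.568 after OGD/R. All 9 libraries held little IL6R beside IL6 itself. IL11RA, the IL11-binding receptor, read 3.85 ± 0.655 FPKM in control, 3.15 ± 0.753 in OGD and 3.13 ± 0.0724 after OGD/R (SD, n = 3) and was not called in any comparison. IL27RA, a receptor subunit that pairs with gp130 for IL27, fell from 1.80 to 0.778 FPKM in OGD and rose to 3.14 after OGD/R (log2 fold change 1.22 against OGD, SE 0.14, adjusted p = 9.89e-06). All OGD libraries of IL27RA (0.597 to 0.888 FPKM) lay below the filter of 1 FPKM. The gene passed that filter only through control and OGD/R. ADAM17, a protease that sheds the IL6 receptor from the cell surface, rose from 2.01 FPKM in OGD to 6.75 in OGD/R (1.35, SE 0.21, adjusted p = 0.000112).

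Among the other JAK kinases, TYK2 fell from 20.8 to 11.2 FPKM in OGD (log2 fold change -0.80, SE 0.16, adjusted p = 0.00153) and rose to 26.0 in OGD/R (1.14, SE 0.16, adjusted p = 5.80e-05). JAK2 fell from 4.26 to 2.09 FPKM in OGD (-0.76, adjusted p = 0.00182) but not under quantile normalization or length trend removal (largest adjusted p = 0.0549), and stood at 3.21 FPKM in OGD/R. Among the other STAT genes, STAT2 and STAT6 rose from 8.52 to 30.4 FPKM and from 10.2 to 28.3 FPKM between OGD and OGD/R. STAT2 had fallen in OGD from 16.1 FPKM (-0.83, SE 0.14, adjusted p = 0.000545), a call kept in all 20 alternatives. STAT6 had fallen in OGD from 16.8 FPKM, which was not called with the length trend removed, nor after quantile normalization or median-of-ratios scaling (largest adjusted p = 0.0883).

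Among the inhibitors, SOCS1, a close relative of SOCS3, read 2.22 to 3.19 FPKM in the controls, 1.79 to 3.18 in OGD and 2.18 to 2.87 after OGD/R, and was not called. Of 4 other SOCS family genes tested, 4 fell in OGD (46.7% of all genes fell), 3 rose in OGD/R against OGD (53.3% rose) and 0 were called in OGD/R against control (41.2% were called in either direction). PTPN1, a phosphatase that acts on JAK kinases, fell from 20.5 to 10.6 FPKM in OGD and rose to 36.6 after OGD/R (log2 fold change 1.69, SE 0.14, adjusted p = 8.90e-07). PIAS3, an inhibitor of STAT3, rose from 9.60 to 24.7 FPKM over the same step (1.27, SE 0.13, adjusted p = 4.34e-06).

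Genes known as STAT3 targets, many of which also answer other factors, were lower in 12 and higher in 1 of 20 tested in OGD against control, beside 46.7% and 11.3% of all genes. Between OGD and OGD/R 19 were higher and 1 lower, beside 53.3% and 17.4%, and against control 14 were higher and 1 lower in OGD/R, beside 24.7% and 16.5%. Of these calls against control, those of BCL3, FOS, KLF4 and TNFRSF1A were lost under 10, 6, 2 and 1 of 20 alternatives. Those of BCL6, MCL1, IRF1, CCND1, MYC, PIM1, VEGFA, ICAM1 and CEBPD held in each alternative that tested them. The remaining calls were not examined under the alternatives. BCL3, a nuclear cofactor of NF-kB, fell from 10.3 to 2.49 FPKM in OGD (log2 fold change -1.68, SE 0.15, adjusted p = 8.97e-06) and rose to 14.0 in OGD/R. JUNB, an AP-1 subunit, fell from 92.3 to 24.1 FPKM and rose to 86.8. CEBPD, a transcription factor of the acute phase response, fell from 85.4 to 16.0 FPKM and rose to 51.8, which was still below control (-0.71, SE 0.12, adjusted p = 0.000676). FOS (11.4, 4.39 and 17.2 FPKM), IRF1 (12.8, 5.47 and 19.3), KLF4 (7.29, 3.83 and 10.7), TNFRSF1A (33.6, 14.3 and 46.4), SBNO2 (8.13, 3.55 and 11.9), BCL6 (2.14, 1.03 and 3.68) and MCL1 (53.6, 33.3 and 77.6) likewise had their lowest mean in OGD, in the order control, OGD and OGD/R.

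Among the other targets, MYC, ICAM1, CCND1, VEGFA and PIM1 were not called lower in OGD on the deposited scale and were higher in OGD/R than in control. MYC rose from 27.4 to 38.0 FPKM in OGD and to 80.2 after OGD/R (log2 fold change 1.52 against control, SE 0.10, adjusted p = 2.54e-06). Its rise in OGD was lost after rescaling to an equal sum per library (0.20, adjusted p = 0.139). ICAM1, a leukocyte adhesion molecule, read 23.3, 19.9 and 75.3 FPKM in control, OGD and OGD/R (1.65 against control, SE 0.09, adjusted p = 2.54e-06). It was called lower in OGD than in control with no expression filter (adjusted p = 0.0443), after rescaling (adjusted p = 0.00129), and without control replicate 2 (adjusted p = 0.0332) or OGD/R replicate 2 (adjusted p = 0.0451). Against control, OGD/R was also higher for CCND1, cyclin D1 (1.13), VEGFA, the endothelial growth factor (1.002), and the kinase gene PIM1 (0.91). None of these 3 was called in OGD against control, but CCND1 and VEGFA were lower in OGD without control replicate 3 (-0.56, adjusted p = 0.00190, and -0.38, adjusted p = 0.0172), and all 3 were lower after rescaling to an equal sum per library.

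**Figure D5:**
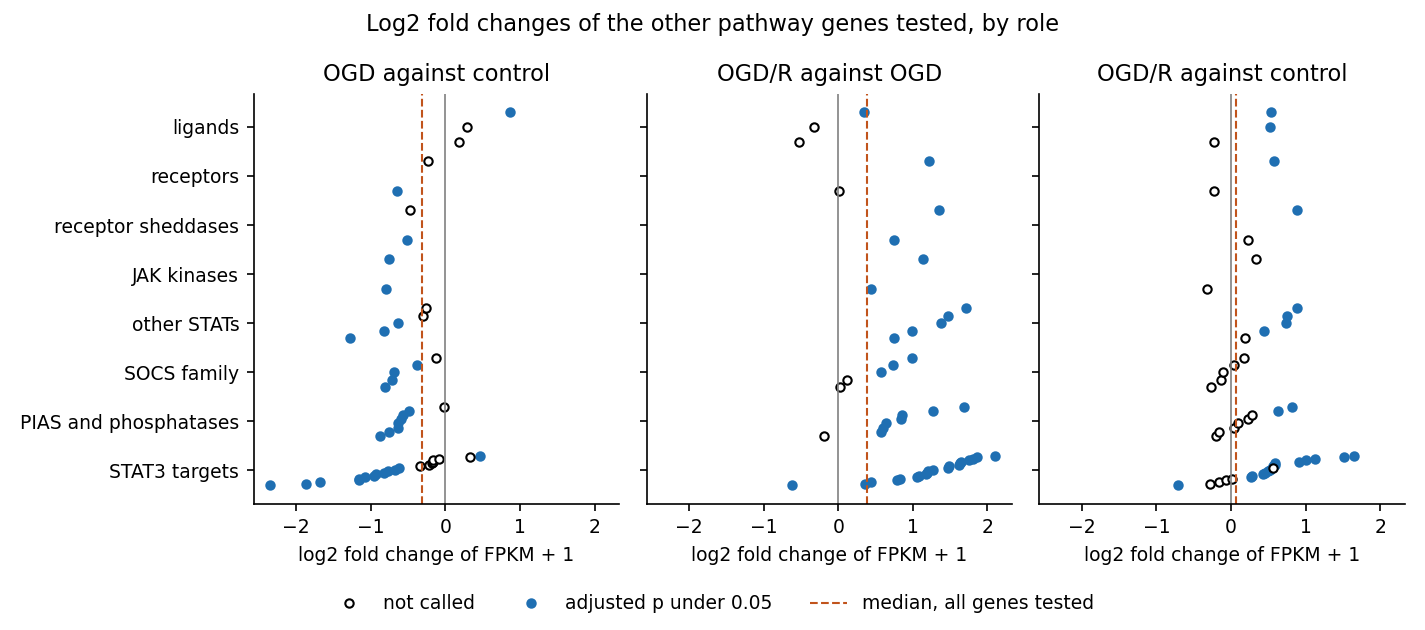
Log2 fold change of FPKM + 1 for the 47 other pathway genes tested, by role and comparison (filled: adjusted p under 0.05; open: not called; dashed line: median of all genes tested; heights within a role only separate the points). In OGD/R against OGD 40 points lie right of 0 with a call and 1 left of it.

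Over the 9 libraries, the genes whose log2 values followed IL6 most closely were ITGA11, an integrin subunit (Pearson r = 0.995), the transcription factor gene ETV4 (0.994) and CAD, a pyrimidine synthesis enzyme (0.993). For LIF they were TRAF1 (0.994), ITGA11 (0.993) and the amino acid transporter gene SLC7A5 (0.991). ITGA11 averaged 1.71, 1.84 and 5.94 FPKM, and SLC7A5 17.1, 17.7 and 43.3 FPKM, in control, OGD and OGD/R. TRAF1 lay near the expression filter of 1 FPKM, at 0.937, 0.922 and 1.99 FPKM in the same order. For SOCS3 they were AGPAT2 (0.995), IRF7 (0.994) and OGFR (0.991), with IRF7, an interferon regulatory factor, at 59.3, 27.5 and 58.4 FPKM. The 9 libraries form 3 groups, and these coefficients describe likeness only. In these bulk libraries, fewer cells expressing a gene and less RNA per cell cannot be told apart.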

How the data were processed

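The deposited table held FPKM values that the authors had computed for each gene in each library. The build was GRCh38 per the submitters' processing notes, and the aligner, quantification tool, annotation and strand setting are, in the sources used here, not given. Low values were not whole multiples of a common step, so depth is unknown and no counting interval could be given. Columns were matched to samples by library name.

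The 9 genes and the pathway lists were chosen with earlier results of these data known. The 10818 genes that reached 1 FPKM in 3 or more libraries entered limma 3.58.1 (R 4.3.3) on the log2(FPKM + 1) scale, in 1 fit of 3 groups (lmFit, eBayes with trend). Tests were two-sided, with Benjamini-Hochberg adjustment over all genes tested and a threshold of 0.05. All adjusted p-values of genes are limma's, and fold changes understate those of low genes. The fit was tested on simulated data. A relative value is a fold change minus the median of all genes tested. Pathway genes were named if called with a log2 fold change of 1 or more in size in any comparison, or if listed by name (IL6R, IL11RA, OSM, JAK2, TYK2 and SOCS1). One listed gene is not reported here. Genes alike in pattern were the 3 with the highest Pearson correlation. Alternatives were 2 pseudocounts (0.1 and 0.5), 2 filters, 3 scalings, removal of the length trend (10591 genes with a length in GENCODE 29), a robust prior, 2-group fits, a replicate block, and leaving out each library. Sequences came from RefSeq (GRCh38.p14). Figures used matplotlib 3.10.9 in Python 3.11.15.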

Additional observations from a re-analysis of the deposited data

How the results depend on the processing

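Of 537 values of the 9 genes under the 20 alternatives, 494 stayed called in the same direction or stayed uncalled, 21 lost a call, 16 gained one and 6 changed sign with a call on at least one side. A further 13 changed sign while uncalled on both sides. The 6 were IL6ST in OGD/R against OGD after median-of-ratios scaling (-0.29, adjusted p = 0.0104) and length trend removal (-0.71), IL6ST in OGD/R against control with length trend removal (-0.038), LIFR in OGD against control with length trend removal (0.10), and LIFR in OGD/R against OGD after quantile normalization (-0.046) and length trend removal (-0.54). Among other pathway genes named, OGD/R against OGD changed sign for IL11RA (-0.56), SOCS1 (-0.53) and JAK2 (-0.13) after quantile normalization and for JAK2 with length trend removal (-0.18). The cause was not tested. In all 180 cases the total called in either direction, of all genes, the 9 members or the pathway genes, stayed within 1.5 times the main total. The split by direction moved more. In OGD against control, genes called higher went from 1218 to 2930 after median-of-ratios scaling and to 611 after rescaling to an equal sum per library. Members called there went from 0 higher and 5 lower to 3 and 3 after median-of-ratios scaling. Leaving out 1 library gave 4 to 5, 6 to 9 and 4 to 7 of the 9 genes called for OGD against control, then OGD/R against OGD, then OGD/R against control. Over all genes, the same fits called 5142 to 6692, 6843 to 7894 and 3318 to 4582 of the 10668 to 10792 tested. With the replicate number as a block, 5, 7 and 5 of the 9 genes and 5956, 7452 and 4128 of all genes were called. The main fit did not use the numbers as pairs, because the labels name no culture or day shared by same-numbered libraries. Same-numbered libraries of different groups correlated in their deviations at -0.20 to 0.15, and 0 of 9 libraries correlated best with its own number. IL6ST in OGD/R against control was the one call among the 9 genes that the block ended.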

Other observations

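The pathway annotation deposited with the table placed 122 further genes in KEGG JAK-STAT signalling, and 72 of them passed the expression filter. In OGD against control 7 were higher and 44 lower, beside 11.3% and 46.7% of all genes tested (median log2 fold change -0.57 against -0.31). Between OGD and OGD/R 56 were higher and 3 lower, beside 53.3% and 17.4% (median 0.79 against 0.39), and in OGD/R against control 29 were higher and 2 lower, beside 24.7% and 16.5% (median 0.27 against 0.07). Of the family's other ligands, CLCF1, which signals through the CNTF receptor, was higher in OGD/R than in control (means of 6.38 and 4.13 FPKM, a log2 fold change of 0.52 with SE 0.13, adjusted p = 0.00682). EBI3, a cytokine subunit shared by IL27 and IL35, was higher in OGD than in control (0.847 to 2.28 FPKM, 0.86, SE 0.18, adjusted p = 0.00188). In control EBI3 read 1.32, 0.374 and 0.842 FPKM, near the filter of 1 FPKM, which it reached in every OGD and OGD/R library. The calls of CLCF1 and EBI3 were not examined under the alternatives. This annotation, CLCF1 and EBI3 were chosen after their values had been seen.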
